A study of Mus musculus with 6 samples.

Results

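The expression of 9 transcription factors of the macrophage lineage, Spi1, Cebpa, Cebpb, Maf, Irf8, Irf4, Runx1, Mitf and Tfec, was examined in RAW264.7 cells, a transformed mouse macrophage line. The 9 genes were selected by symbol, and all 9 were present among the 56092 symbols of the count table. The cells were stable lentiviral lines with GFP, selected with puromycin, that carried either a negative control shRNA (shNC, 3 libraries) or an shRNA against Trem2 (shTrem2, 3 libraries). Both groups received IL-4 (20 ng/mL, 24 hours) and afterwards debris of TCMK-1 tubular epithelial cells for 24 hours of co-culture, so neither agent was compared with its absence. Which of the study's shRNAs against Trem2 was sequenced, and whether each line descended from 1 clone, is not given in the sources used here. A difference between the groups therefore cannot be told apart from a difference between the lines other than Trem2. The labels do not say whether the replicates were separate cultures, so p-values measure only the spread between these libraries, which may be technical.

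Macrophage identity rests on a small set of DNA-binding proteins. PU.1, the ETS factor encoded by Spi1, opens enhancers in myeloid precursors together with C/EBP and RUNX proteins, and its dose directs cells towards macrophages. On this base, MAF proteins limit self-renewal, IRF8 favours monocytes and macrophages over granulocytes, IRF4 takes part in the response to IL-4, and the MiT/TFE proteins Mitf and Tfec act on lysosomal and osteoclast genes.

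Libraries held between 15876061 and 18088372 counts in shNC and between 19358113 and 19655158 in shTrem2. Every shTrem2 library held less Trem2, the target of the shRNA, than any shNC library. Its level was 114, 122 and 144 CPM (counts scaled to library depth with TMM factors) in shNC against 64.7, 63.1 and 80.1 in shTrem2, a log2 fold change of -0.87 (SE 0.094, adjusted p = 3.4e-06). On the log2(FPKM + 0.1) scale the same difference was -2.08, and the cause of this gap was not tested. The macrophage markers Csf1r and Cd68 were abundant in every library. Csf1r, the receptor for the macrophage growth factor CSF1, averaged 1058 CPM in shNC and 1788 in shTrem2, and Cd68, a lysosomal glycoprotein of macrophages, averaged 567 and 617 CPM.

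Of the 9 factors, 8 passed the filter on low counts and were tested among 13528 genes with edgeR's quasi-likelihood test and Benjamini-Hochberg adjustment. A gene was called differentially expressed (DEG) at an adjusted p under 0.05 with a fold change over 1.5. In shTrem2, Tfec was called higher and Irf8 was called lower. Thus 1 of 8 factors was a DEG in each direction, beside 9.46% of all tested genes called higher and 12.4% called lower (21.8% in both directions). Tfec passed the filter through the shTrem2 libraries alone, and a gene kept in this way had to differ. With at least 10 counts asked of every library, 7 factors were tested, 0 were called higher and 1 lower. Spi1 and Runx1 were also higher by the adjusted p alone, each by less than 1.5-fold, which made 4 of 8 factors, beside 57.4% of all tested genes. The groups did not overlap in 5 of the 8 factors, beside 63.8% of all tested genes, and Mitf was the member of these 5 that did not pass the adjusted p. Cebpa, Cebpb and Irf4 overlapped between the groups, and Maf had no count in any library. The number of factors that differed was thus near what the whole table shows, and it is no result about the factors as a set.

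The abundance of the factors was compared per length, as FPKM, which scales fragments to transcript length and library depth. Spi1 was the most abundant factor, with 117 ± 8.13 FPKM in shNC and 167 ± 15.3 in shTrem2 (mean ± SD, n = 3 each), at the 94.6th percentile of the tested genes. Cebpb followed with 73.7 ± 4.03 and 75.6 ± 5.73 FPKM, and Irf8 with 42.3 ± 2.10 and 21.7 ± 0.835. Mitf stood at 21.5 ± 0.344 FPKM in shNC and 19.0 ± 0.354 in shTrem2. In shNC, Cebpa (12.2 ± 1.65 FPKM) and Runx1 (11.6 ± 1.66) could not be ordered, since their libraries overlapped. In shTrem2, Runx1 (16.7 ± 2.72 FPKM) overlapped with Mitf and stood above Cebpa (11.0 ± 1.53). Irf4 was a low factor, at 1.89 ± 0.217 and 2.08 ± 0.205 FPKM. Tfec was lower still, at 0.143 ± 0.0757 and 0.783 ± 0.316 FPKM, and Maf was listed at 0. All other neighbours in the order were separated in every library of their group.

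**Figure D1:**
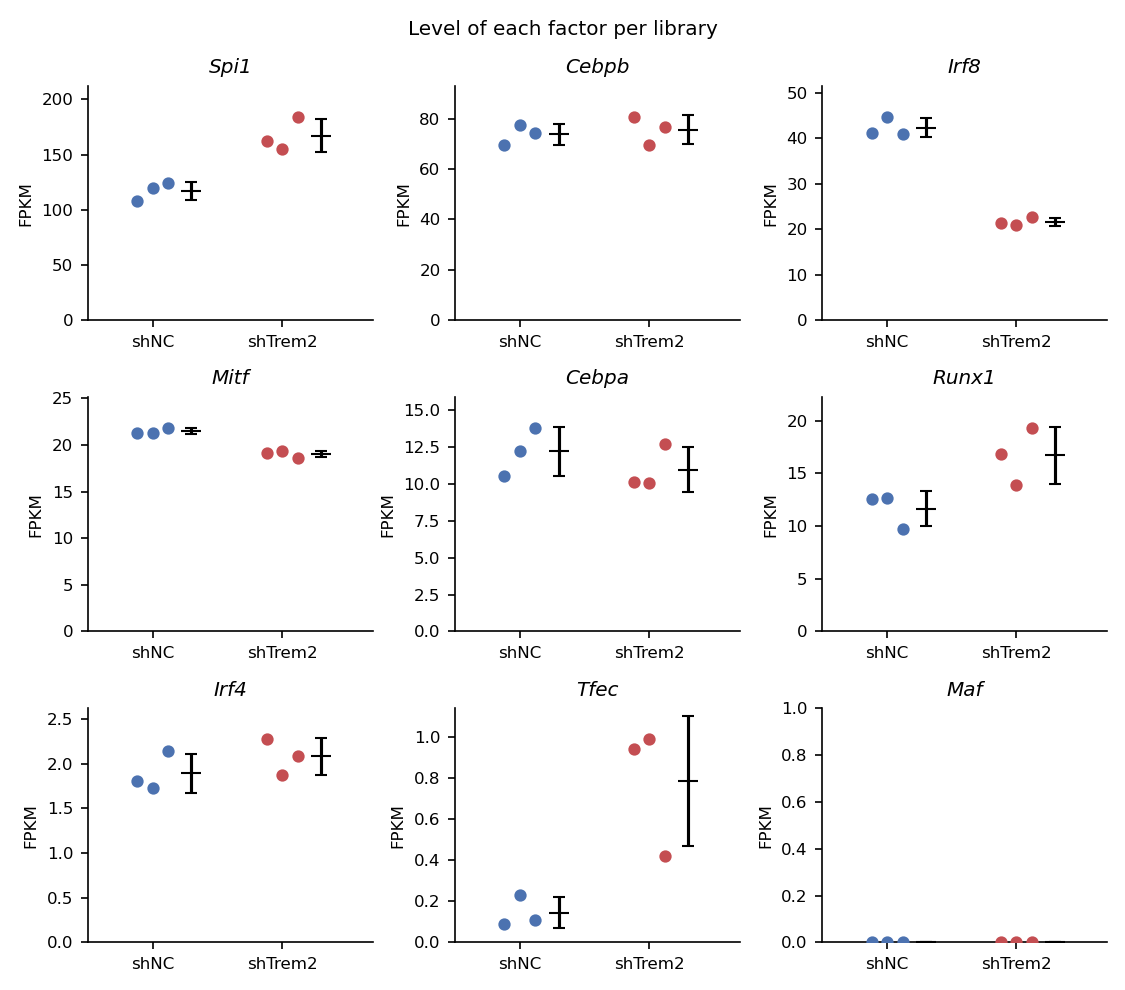
FPKM of each factor (vertical axes from 0, one scale per gene) in the 3 shNC and 3 shTrem2 libraries, points for libraries in the order of their replicate numbers, with mean and SD beside them. Irf8 lies between 41.03 and 44.76 FPKM in shNC and between 21.03 and 22.62 in shTrem2, Spi1, Runx1 and Tfec are higher in every shTrem2 library, and Maf is at 0 throughout.

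Spi1 (ENSMUSG00000002111, chr2:91082390-91115756 on the plus strand of GRCm38) encodes PU.1, which binds purine-rich ETS sites in most myeloid enhancers. It measured 153, 154 and 170 CPM in shNC and 220, 208 and 233 CPM in shTrem2. All 3 shTrem2 libraries lay above all shNC libraries. The log2 fold change was 0.47 (SE 0.056, 95% confidence interval 0.35 to 0.59, adjusted p = 7.8e-06), a 1.39-fold difference that stayed under 1.5-fold. The count table splits Spi1 into 6 transcript rows, of which the largest held 83.6% ± 1.69 of the gene's counts in shNC and 73.6% ± 1.48 in shTrem2. That row measured 131, 127 and 141 CPM against 165, 149 and 172 CPM, with a log2 fold change of 0.29 (adjusted p = 0.026 over 33853 rows). The next row measured 20.4, 24.0 and 26.9 CPM in shNC and 50.9, 54.1 and 54.8 CPM in shTrem2, a log2 fold change of 1.16 (SE 0.11, adjusted p = 0.00077). It was a DEG at the level of rows, beside 13.6% of all tested rows. Its share of Spi1 counts was 14.9% ± 1.39 in shNC and 24.3% ± 1.65 in shTrem2, and no shTrem2 library lay below 23.0% or shNC library above 15.8%. The difference in share was not tested. The rows carry gene symbols only, and annotated lengths did not identify the transcripts of Spi1.

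Other ETS genes moved in both directions. Of 14 tested ETS genes, Spi1 included, none was called higher and 4 were called lower. These were 28.6% of the list, beside 21.8% of all tested genes called. The median log2 fold change was -0.15, beside -2.84e-05 over all tested genes. Spib, the closest relative of Spi1 and best known in B cells and plasmacytoid dendritic cells, had 22, 25 and 27 counts in shNC and 2, 1 and 2 in shTrem2. The ratio of its pooled CPM was 16.7-fold in favour of shNC (95% interval for counting error 6.84 to 52.9), and the fitted log2 fold change was -3.93 (adjusted p = 9.0e-06). Spib passed the filter through shNC alone, and 3 of 13 ETS genes were called lower with at least 10 counts in every library. Elk4 and Elk3, which act with serum response factor, fell by 0.65 each on the log2 scale, and Etv3, an ETS repressor, fell by 0.62. The call of Etv3 was lost without shTrem2 replicate 3 (log2 fold change -0.58).

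Cebpa (ENSMUSG00000034957) and Cebpb (ENSMUSG00000056501) encode basic leucine zipper proteins. C/EBP alpha acts in myeloid precursors, and C/EBP beta in mature and activated macrophages, including the genes of the IL-4 response. Cebpa measured 24.1, 27.7 and 31.9 CPM in shNC and 23.8, 23.1 and 29.8 CPM in shTrem2. These ranges overlapped, and the log2 fold change of -0.13 (95% confidence interval -0.37 to 0.11) did not pass the test (adjusted p = 0.35). Without shTrem2 replicate 3 it was -0.26 with an adjusted p of 0.045. Cebpb measured 81.2, 90.9 and 88.1 CPM in shNC and 97.9, 83.7 and 91.4 CPM in shTrem2, again with overlap. Its log2 fold change was 0.07 (95% confidence interval -0.07 to 0.21, adjusted p = 0.39), so a change of Cebpb beyond 0.21 on the log2 scale lies outside the interval. The ratio of Cebpb to Cebpa within each library was 2.72, 2.66 and 2.43 in shNC and 2.997, 2.79 and 2.59 in shTrem2 (log2 of FPKM). The difference of 0.19 was not significant (exact two-sided permutation test, p = 0.4, where 0.1 is the smallest p that 3 against 3 libraries allow).

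The other C/EBP genes were lower or did not pass. Of 6 tested members of the family, none was called higher and 2 were called lower, with a median log2 fold change of -0.30. The calls were 33.3% of the family, beside 21.8% of all tested genes. Cebpg, a partner protein without an activation domain, was 113 CPM in shNC and 64.0 CPM in shTrem2 (log2 fold change -0.82, adjusted p = 1.7e-07). Cebpe, a factor of late granulocyte differentiation, was 3.60 and 1.69 CPM (-1.09, adjusted p = 0.0026). Cebpd, an inducible member, passed the adjusted p at a log2 fold change of -0.37 (adjusted p = 0.0041) and stayed under 1.5-fold. Ddit3, the stress-induced member CHOP, did not pass (-0.24, adjusted p = 0.23).

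Maf (ENSMUSG00000055435, chr8:115682942-115707794 on the minus strand of GRCm38) encodes c-MAF, a large MAF protein of tissue macrophages. Both of its rows held 0 counts in all 6 libraries, and at this depth a count of 0 allows up to 0.189 CPM in the shallowest library and 0.153 CPM in the deepest. A change of Maf was not detectable at this depth, and no ratio with Maf as the divisor could be computed. The small MAF proteins lack an activation domain and pair with CNC factors such as Nrf2. Maff was 16.2 CPM in shNC and 5.13 CPM in shTrem2 (-1.66, adjusted p = 1.8e-06), and Mafg was 181 and 115 CPM (-0.66, adjusted p = 1.0e-07). Mafk, at -0.27 (adjusted p = 0.0022), stayed under 1.5-fold. Of these 3 small MAF genes, none was called higher and 2 were called lower, with a median log2 fold change of -0.66. Over all tested genes 21.8% were called, and 12.4% were called lower.

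Irf8 (ENSMUSG00000041515, chr8:120736358-120756694 on the plus strand of GRCm38) encodes an interferon regulatory factor that binds DNA mainly with partners such as PU.1. It measured 103, 109 and 101 CPM in shNC and 51.2, 54.2 and 56.8 CPM in shTrem2. The groups were far apart: the highest shTrem2 library stood well below the lowest shNC library. Irf8 fell by 0.95 on the log2 scale (SE 0.057, 95% confidence interval -1.07 to -0.83, adjusted p = 1.5e-08), which is 1.93-fold. Over 17 alternatives the log2 fold change lay between -0.99 and -0.91. Of the 7 Irf8 rows, 1 held 98.5% ± 0.286 of the counts in shNC and 98.3% ± 0.553 in shTrem2, and its log2 fold change was -0.95 (adjusted p = 0.00023 over rows). The row was matched indirectly, through annotated transcript lengths, to transcript Irf8-201 of GENCODE M21, since the rows carry no length of their own.

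The promoter window of this transcript is shown because nearly all Irf8 counts lie on the row matched to it, although transcript starts were not measured. The window runs over chr8:120736108-120736407 on the plus strand (RefSeq, build GRCm38.p6), from 250 bases before the annotated start to the first 50 bases of the transcript. Capitals mark the TATA box TATAAA, whose first base lies at -31 when the start base is +1 and the base before it -1. On either strand TATAAA was present in 13.6% of 32851 promoter windows of the same length.

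Irf8 promoter: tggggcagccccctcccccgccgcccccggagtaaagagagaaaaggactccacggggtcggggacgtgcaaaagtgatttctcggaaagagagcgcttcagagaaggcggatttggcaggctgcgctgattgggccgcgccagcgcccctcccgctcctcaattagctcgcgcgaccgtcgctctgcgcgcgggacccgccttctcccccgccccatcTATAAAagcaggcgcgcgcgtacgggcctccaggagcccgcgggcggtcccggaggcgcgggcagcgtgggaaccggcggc

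Windows were at hand for 7 of the 9 factors, 11 windows in all, and were searched on both strands for 11 motifs. Cebpa (-30) and Irf4 (-26) also held TATAAA upstream of their start, Cebpb held it at 22 bases after the start, and another Mitf window held its reverse complement at -175. The PU.1 box GAGGAAGT, present in 3.20% of all windows, the ETS site CCGGAAGT (3.89%), the ISRE core GAAANNGAAA (3.44%), the ETS-IRF composite GGAANNGAAA (2.72%) and the M-box TCATGTG (3.77%) had no match in the 11 windows. Only these exact letters were searched, so near matches were not counted. The Tfec window, for example, holds AAGGAAGT, which differs from the PU.1 box in its first base. A match or its absence describes letters in these windows and not binding.

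Irf4 (ENSMUSG00000021356) encodes the factor that, downstream of IL-4, takes part in the expression of alternative activation genes. It measured 8.01, 7.65 and 9.56 CPM in shNC and 10.4, 8.45 and 9.47 CPM in shTrem2. The ranges overlapped and the log2 fold change of 0.16 (95% confidence interval -0.12 to 0.45, adjusted p = 0.31) did not pass the test. The split between its main rows varied widely within a group, with 59.24% to 89.98% of the counts on the largest row in shNC. The ratio of Irf4 to Irf8 restates these 2 results within each library and was not used as a test. The log2 ratio of Irf4 to Irf8 was -4.51, -4.69 and -4.26 in shNC and -3.23, -3.49 and -3.44 in shTrem2. Every shTrem2 library was higher, by 1.10 on average.

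Among the 8 tested IRF genes, Irf8 was the DEG (12.5% of the list, beside 21.8% of all tested genes). Of the 8, 6 passed the adjusted p, 3 in each direction. Over all tested genes 57.4% passed it, 28.8% higher and 28.6% lower. The median log2 fold change was 0.15. Irf7, the interferon-induced amplifier of type I interferon, was 156 CPM in shNC and 217 CPM in shTrem2 (0.48, adjusted p = 1.3e-06). Irf2 (0.53, adjusted p = 1.8e-05) and Irf9, the DNA-binding part of ISGF3 (0.36, adjusted p = 0.00044), were also higher, all under 1.5-fold. Irf5, a factor of inflammatory macrophages, was 110 CPM and 82.3 CPM (-0.42, adjusted p = 8.7e-06), and Irf3 was lower by a log2 fold change of -0.28 (adjusted p = 0.0012). Irf1 did not pass (0.14, adjusted p = 0.16).

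**Figure D2:**
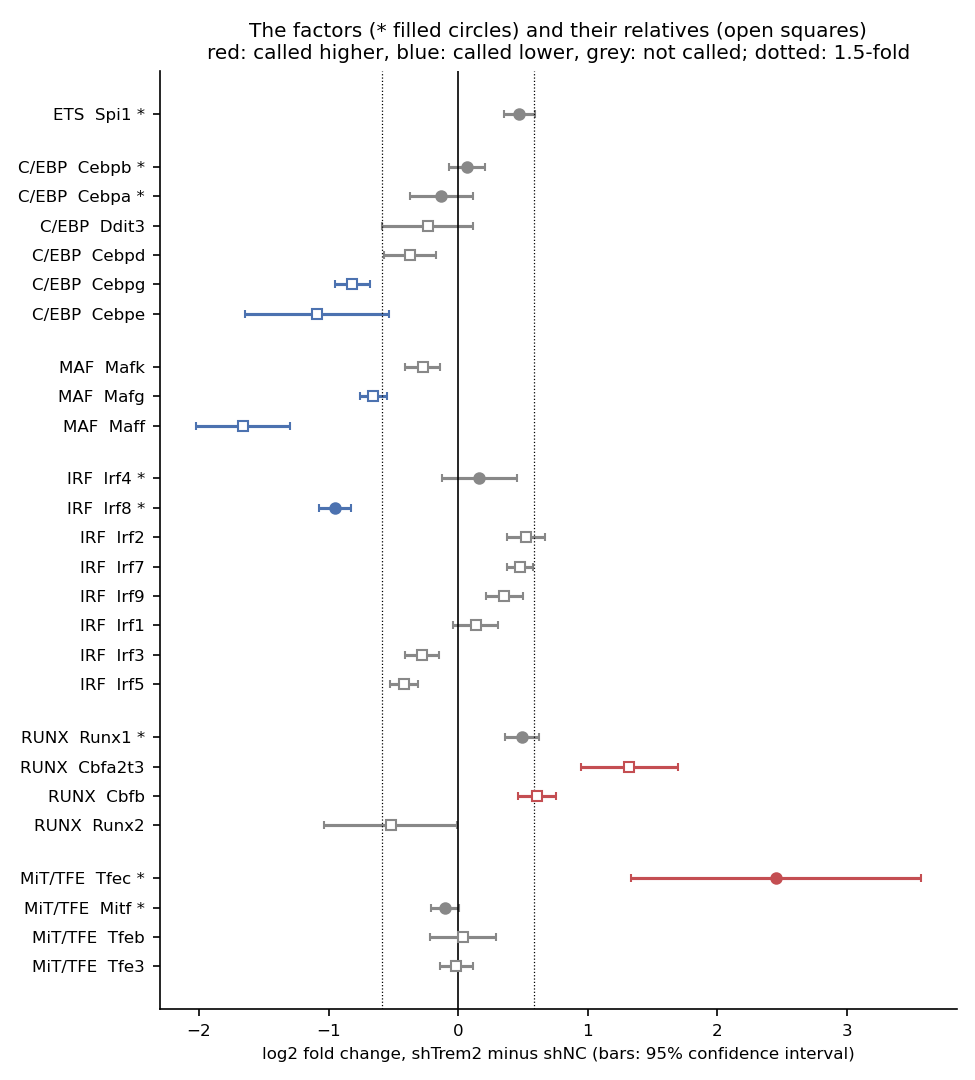
Log2 fold change of shTrem2 minus shNC (horizontal axis) with 95% confidence interval for the 8 tested factors (filled circles, starred) and their tested relatives (open squares), grouped by family, with dotted lines at 1.5-fold. Irf8 at -0.95 and Tfec at 2.45 are the factors past the lines, and Maff at -1.66 is the relative farthest from 0 among those shown.

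Runx1 (ENSMUSG00000022952, chr16:92601466-92826149 on the minus strand of GRCm38) encodes the Runt-domain factor that acts upstream of Spi1 in blood formation. It measured 46.7, 44.6 and 44.2 CPM in shNC and 66.6, 60.1 and 63.8 CPM in shTrem2. No library of one group reached the range of the other. The log2 fold change was 0.49 (SE 0.060, 95% confidence interval 0.36 to 0.62, adjusted p = 1.0e-05), or 1.41-fold, under the 1.5-fold threshold. Of 7 rows, the largest measured 22.9, 22.9 and 26.8 CPM in shNC and 33.5, 31.4 and 32.1 CPM in shTrem2 (log2 fold change 0.42, adjusted p = 0.019). The next row measured 15.3, 15.3 and 14.5 CPM against 26.0, 22.8 and 25.8 CPM, a log2 fold change of 0.72 (adjusted p = 0.0031), and was a DEG at the level of rows. It held 33.3% ± 0.972 of Runx1 counts in shNC and 39.2% ± 1.30 in shTrem2, a difference in share that was not tested. Runx1 is transcribed from a distal and a proximal promoter, but lengths did not identify these rows, so they cannot be tied to either.

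**Figure D3:**
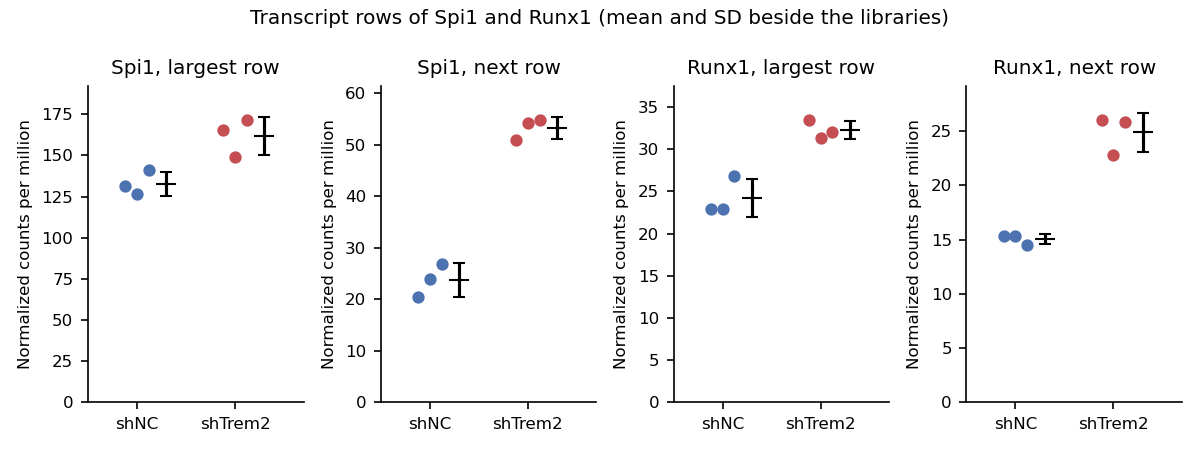
Normalized CPM of the largest and the next transcript row of Spi1 and Runx1 (vertical axes from 0) in each library, with mean and SD beside the points. All 4 rows are higher in every shTrem2 library, and the next row of Spi1 lies between 20.4 and 26.9 CPM in shNC and between 50.9 and 54.8 CPM in shTrem2.

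Of 4 tested genes of the RUNX list, 2 were called higher and none lower, with a median log2 fold change of 0.55. Over all tested genes 21.8% were called, and 9.46% were called higher. Cbfb, the non-DNA-binding partner that stabilises RUNX proteins on DNA, was 122 CPM in shNC and 185 CPM in shTrem2 (0.61, adjusted p = 4.6e-06). Its call lay near the threshold and was lost in 6 of 17 alternatives, with log2 fold changes down to 0.45. The loss occurred among others without shNC replicate 1 (0.53) and without shTrem2 replicate 3 (0.56). Cbfa2t3, a corepressor of the ETO family, was 2.69 and 6.74 CPM (1.32, adjusted p = 2.2e-05). Runx2, the bone-forming member, did not pass (-0.52, adjusted p = 0.078). It was called lower without shNC replicate 3 (-0.67) and changed sign with the effective-length offset (0.03). Runx3 had at most 10 counts and was not tested.

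Mitf and Tfec encode basic helix-loop-helix leucine zipper proteins that bind E-boxes as homodimers or with each other. Mitf (ENSMUSG00000035158, chr6:97807052-98021349 on the plus strand of GRCm38) measured 81.9, 83.9 and 88.0 CPM in shNC and 79.1, 80.3 and 77.4 CPM in shTrem2. The groups did not overlap, yet the log2 fold change of -0.10 (95% confidence interval -0.21 to 0.01) did not pass the test (adjusted p = 0.11). It passed in 3 of 17 alternatives, with an adjusted p of 0.036 with library size only, 0.042 on log2(FPKM + 1) and 0.041 on log2(FPKM + 0.1). Of the 8 Mitf rows, 1 held 95.5% ± 0.466 of the counts in shNC and 96.4% ± 0.799 in shTrem2. This row was matched in the same way to transcript Mitf-202. That transcript starts at the promoter farthest upstream and not at the downstream promoter known for melanocytes.

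The window of this promoter is shown since nearly all Mitf counts lie on the row so matched, although transcript starts were not measured. It spans chr6:97806808-97807107 on the plus strand (RefSeq, GRCm38.p6). Capitals mark, from the 5' end, TGCTGAC (-222), 1 arm of the MAF recognition element, the C/EBP site TTGCNNAA (-129) and the reverse complement of the RUNX site TGTGGTT (-82). On either strand these letters were present in 4.67%, 10.8% and 5.27% of all windows.

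Mitf promoter: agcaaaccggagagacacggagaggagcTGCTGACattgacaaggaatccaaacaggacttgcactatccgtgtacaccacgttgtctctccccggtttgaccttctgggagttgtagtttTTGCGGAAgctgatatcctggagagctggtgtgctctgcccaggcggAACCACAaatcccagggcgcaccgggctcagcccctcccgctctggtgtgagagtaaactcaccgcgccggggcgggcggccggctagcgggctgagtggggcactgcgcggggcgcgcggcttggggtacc

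Tfec (ENSMUSG00000029553, chr6:16833373-16898441 on the minus strand of GRCm38) is the member of the family restricted to myeloid cells and is known as an IL-4-inducible gene of macrophages. It had 2, 6 and 3 counts in shNC and 27, 29 and 12 in shTrem2, which is 0.124, 0.332 and 0.165 CPM against 1.41, 1.51 and 0.617 CPM. All 3 shTrem2 libraries were higher, and shTrem2 replicate 3 was the lowest of them. The pooled ratio was 5.48-fold (68 against 11 counts, 95% interval for counting error 2.88 to 11.5), and the fitted log2 fold change was 2.45 (SE 0.52, adjusted p = 0.0011). As it passed the filter through shTrem2 alone, its call is a description. It was not tested where at least 10 counts were asked of every library, and on the log2(FPKM + 1) scale its difference was 0.63 (adjusted p = 0.010). Nearly all counts in shTrem2 lay on 1 of its 5 rows.

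The Tfec window is shown because Tfec was the factor called higher, and 3 annotated transcripts start in it. No Tfec row was matched to a transcript, so the start used in these cells is not known. The window spans chr6:16898392-16898691 on the minus strand (RefSeq, GRCm38.p6), printed in the direction of the gene, with GC content of 40.3%. Capitals mark the reverse complement of the RUNX site TGTGGTT (-222) and the STAT6 palindrome TTCNNNNGAA (-200). The latter was present in 6.95% of all windows.

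Tfec promoter: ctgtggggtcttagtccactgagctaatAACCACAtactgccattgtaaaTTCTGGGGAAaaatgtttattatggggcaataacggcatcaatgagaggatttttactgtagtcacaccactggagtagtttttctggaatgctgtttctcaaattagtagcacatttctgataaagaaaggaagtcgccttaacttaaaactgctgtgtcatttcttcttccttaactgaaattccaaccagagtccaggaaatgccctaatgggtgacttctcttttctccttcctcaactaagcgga

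Measured against its relative, Tfec was a minor transcript in both groups. The log2 ratio of Tfec to Mitf was -7.88, -6.53 and -7.64 in shNC and -4.34, -4.29 and -5.47 in shTrem2. The mean difference of 2.65 restates the difference of Tfec, since Mitf differed little, and was not used as a test. The ubiquitous members of the family, Tfeb (log2 fold change 0.04, adjusted p = 0.79) and Tfe3 (-0.01, adjusted p = 0.86), did not pass, and their sign changed in 5 and 2 alternatives. Of 4 tested MiT/TFE genes, Tfec was the DEG (25% of the list, beside 21.8% of all tested genes).

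**Figure D4:**
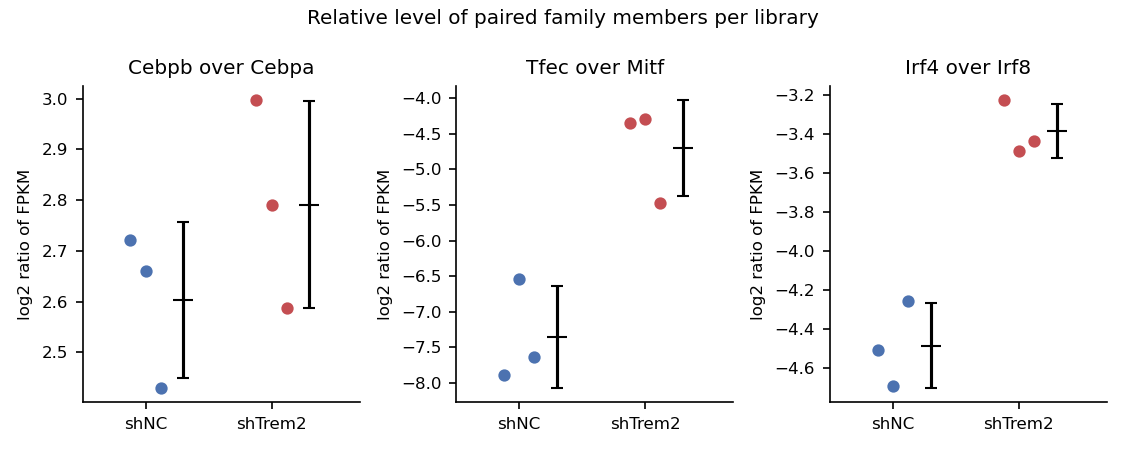
Log2 ratio of FPKM between paired family members within each library (vertical axes, one scale per ratio, not from 0), with mean and SD beside the points. Tfec over Mitf and Irf4 over Irf8 are higher in every shTrem2 library, by 2.65 and 1.10, and Cebpb over Cebpa overlaps between the groups.

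The genes whose profile over the 6 libraries was most like that of Tfec were sought among 9602 tested genes of mean log2 CPM of at least 3, by the root mean square distance of centred log2 CPM. They were Me1 (0.353), the cytosolic malic enzyme, Scel (0.376), which encodes sciellin, Atp6v0d2 (0.376), a subunit of the vacuolar proton pump of osteoclasts and macrophages, Clec7a (0.394), the beta-glucan receptor dectin-1, and Cnnm1 (0.400). Their log2 fold changes were 2.04, 2.04, 1.61, 2.20 and 1.67. Cnnm1 did not pass the call in 3 of 17 alternatives. The likeness rests on 6 libraries in 2 groups, so a gene with a group difference of similar size comes close in it. The log2 CPM held a prior count of 2, which lessens the difference of a gene with few counts such as Tfec. As Tfec was kept in the test through shTrem2 alone, these neighbours are a description.

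Other transcription factors of macrophages were described beside these. Of 24 tested, 6 were called higher and 3 lower, with a median log2 fold change of 0.29. The calls made up 37.5% of the list, beside 21.8% of all tested genes. With at least 10 counts in every library, 23 were tested, 6 higher and 2 lower. Id2 (6.06 CPM in shNC, 23.2 in shTrem2, log2 fold change 1.94) and Id3 (1.35 and 5.21 CPM, 1.95) encode inhibitors of basic helix-loop-helix proteins. Nr1h3, the oxysterol receptor LXR alpha, was 1.74 and 5.09 CPM (1.55), and its partner Rxra was 1.24 and 3.26 CPM (1.39). Batf, an AP-1 factor that works with IRF4 and IRF8, was 1.28 and 0.328 CPM (-1.94), and it passed the filter through shNC alone. Gfi1, a repressor that favours granulocytes, was 2.01 and 0.918 CPM (-1.12), and its call was lost in 5 of 17 alternatives. Pparg, a nuclear receptor of the IL-4 response, had 1 count over all libraries.

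Genes known to lie downstream of the factors were then counted, list by list, beside 21.8% of all tested genes called (9.46% higher and 12.4% lower). The 20 tested PU.1 targets had 4 calls higher and 1 lower (25% of the list, near the share of all tested genes), with a median log2 fold change of 0.17. Lyz2, the macrophage lysozyme, was 2802 CPM in shNC and 7357 CPM in shTrem2 (1.39), Fcgr3 was 12.8 and 32.1 CPM (1.32), Fcgr1 was 53.7 and 97.1 CPM (0.85), and Csf1r had a log2 fold change of 0.76. Itgam, the integrin CD11b, was 466 and 270 CPM (-0.78). Adgre1, which encodes F4/80, was lower by the adjusted p at -0.56 and crossed 1.5-fold in 7 of 17 alternatives.

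The list for C/EBP beta had 8 tested genes, of which 1 was called higher and 6 lower, with a median of -1.61. Lcn2 and Csf3 passed the filter through shNC alone, and with at least 10 counts in every library 6 genes were tested, 1 higher and 4 lower. Lcn2, the siderophore-binding lipocalin, had 268, 261 and 203 counts in shNC and 0, 1 and 2 in shTrem2, a pooled ratio of 275-fold (95% interval for counting error 93.8 to 1337). Ptgs2, the inducible prostaglandin synthase, was 251 and 22.2 CPM (-3.50). Csf3, which encodes G-CSF, was 1.47 and 0.156 CPM (-3.19), its receptor Csf3r was 30.5 and 8.69 CPM (-1.81), and the acute phase gene Saa3 was 5.37 and 2.03 CPM (-1.40). Il13ra1, a receptor chain for IL-4 and IL-13, was 39.8 and 92.1 CPM (1.21). Cebpb itself did not pass the test.

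Of 8 tested genes known downstream of IRF8, 3 were called higher and none lower, 37.5% of the list beside 21.8% of all tested genes, with a median of 0.41. Cx3cr1, the fractalkine receptor, was 88.5 CPM in shNC and 366 CPM in shTrem2 (2.05), Klf4 was 9.23 and 27.7 CPM (1.59), and Naaa was 21.1 and 41.5 CPM (0.97). The IL-4 and IRF4 list had 7 tested genes of 14, all of them DEGs, 3 higher and 4 lower, with a median of -0.78. This count is partly fixed by the filter, since Mrc1, Mgl2 and Ccl22 fell short of 10 counts in some libraries. With at least 10 counts in every library, 4 genes were tested, 1 higher and 3 lower. Il4i1, an IL-4-induced amino acid oxidase, was 62.1 and 6.98 CPM (-3.15), Kdm6b, the H3K27 demethylase, was 35.3 and 14.4 CPM (-1.29), and Ccl22 was 0.906 and 0.173 CPM (-2.34). Mrc1, the mannose receptor, was 0.472 and 3.27 CPM (2.76), Tgm2 was 0.687 and 3.02 CPM (2.12), and Mgl2 was 0.538 and 1.45 CPM (1.43). The call of Mgl2 was lost in 3 of 16 alternatives. Arg1 had between 1 and 3 counts in each library, and Chil3 and Retnla had none, so these defining genes of IL-4 activation could not be followed.

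The list for MITF and its relatives had 14 tested genes, 3 called higher and 1 lower, with a median of -0.03 (13 genes, 2 higher and 1 lower, with at least 10 counts in every library). Ctsk, the collagen-cleaving cathepsin of osteoclasts, had 9, 9 and 6 counts in shNC and 635, 713 and 457 in shTrem2 (log2 fold change 6.07). It was kept in the test through shTrem2, as every shNC library fell short of 10 counts, so its call is a description. Atp6v0d2 was 8.06 and 24.7 CPM (1.61) and Acp5, the tartrate-resistant acid phosphatase, was 30.5 and 78.8 CPM (1.37). Csf3r also stands in this list and was lower. By the adjusted p alone, 4 genes were higher, Dcstamp (0.57) among them, and 6 were lower, beside 28.8% and 28.6% of all tested genes. Besides Csf3r, the lower genes were Neu1 (-0.57), Ostm1 (-0.54), Hexa (-0.45), Sqstm1 (-0.39) and Ctsd (-0.12), all under 1.5-fold. The list for MAF had 4 tested genes of 12, of which Itgax, the integrin CD11c, was 4.90 and 29.6 CPM (2.58) and Mrc1 was higher as given above. The other 2 tested genes, Adgre1 among them, were lower by the adjusted p at a log2 fold change of -0.56 each, under 1.5-fold, and 1 or both were called lower in some alternatives. The median of the list was 1.01, and it turned to -0.57 with at least 10 counts in every library, where Mrc1 was not tested. C1qa, C1qb and C1qc, complement genes of tissue macrophages, had no count in any library.

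**Figure D5:**
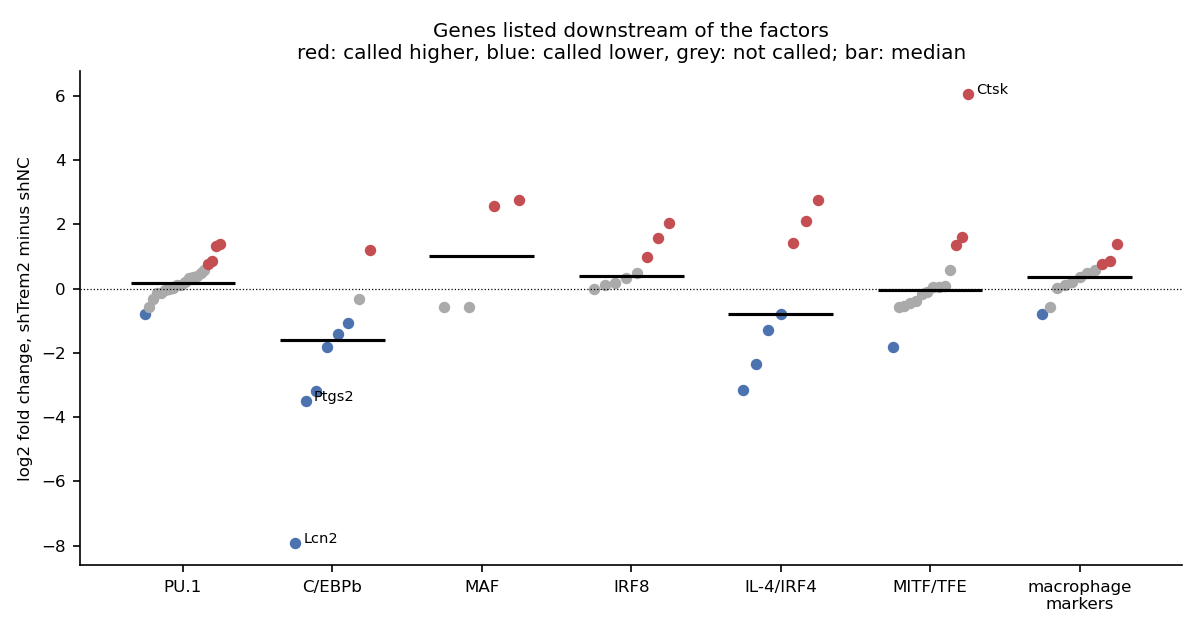
Log2 fold change of shTrem2 minus shNC (vertical axis) for each tested gene of 6 lists downstream of the factors and of the macrophage markers, 1 point per gene, with a bar at the median of each list. The C/EBP beta list reaches from -7.90 for Lcn2 to 1.21 and has the lowest median, -1.61, and Ctsk at 6.07 stands highest.

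Markers of the macrophage lineage and of other cell types were set beside these results. Of 12 macrophage markers, 11 were tested, and 3 were called higher and 1 lower. The calls were 36.4% of those tested, beside 21.8% of all tested genes. The summed level of the markers was 6653 to 7737 CPM in shNC and 12041 to 13353 CPM in shTrem2. Lyz2 was the largest part of it, with a mean of 2802 CPM in shNC and 7357 CPM in shTrem2. By the adjusted p alone, 8 markers were higher and 2 lower, beside 28.8% and 28.6% of all tested genes. The lower ones were Itgam (-0.78) and Adgre1 (-0.56). All 11 tested markers also stand in the PU.1 list. Of 14 tubular epithelial markers, for the cells that gave the debris, 1 was tested. It was Aqp1, a water channel, at 0.745, 0.332 and 0.275 CPM in shNC and 1.98 to 2.61 CPM in shTrem2 (log2 fold change 2.30). Aqp1 passed the filter through shTrem2 alone, so its difference is a description. With at least 10 counts in every library, 0 tubular markers were tested. In all libraries 7 markers, Epcam, Cdh1, Krt8 and Krt18 among them, were at 0. The summed level of the tubular list was 0.934 to 1.43 CPM in shNC and 2.21 to 2.87 CPM in shTrem2, where most of it was Aqp1. Granulocyte markers had at most 7 counts per gene and library and a summed level of 0.186 to 0.439 CPM in shNC and 0.154 to 0.313 CPM in shTrem2, with Mpo, Ctsg, S100a9 and Camp at 0. Dendritic cell markers summed to 8.13 to 8.75 CPM in shNC and 4.01 to 5.92 CPM in shTrem2, mostly Zbtb46 (-0.84), with Flt3 and Cd209a at 0. The sum thus follows Zbtb46 and does not describe dendritic markers as a set. Itgax encodes CD11c, which the study stained for dendritic cells, and is not in this list. It went the other way, from 4.90 CPM in shNC to 29.6 CPM in shTrem2 (2.58). B cell markers summed to 71.4 to 71.5 CPM and 64.7 to 75.7 CPM, nearly all of it Blnk, which macrophages also express, with Ebf1 and Ms4a1 at 0. In bulk libraries a change in the share of cells and a change in RNA per cell cannot be told apart, and the part of these lists in the results on the factors was not tested.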

How the data were processed

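RNA was extracted from 6 libraries of RAW264.7 cells, grouped by the shRNA in their labels (3 shNC, 3 shTrem2), and sequenced as stranded poly(A) libraries. For the reads, the authors used fastp (trimming), HISAT2 (alignment) and StringTie (assembly). The submitters' processing notes name GRCm39. The counting tool and the annotation release are not given in the sources used here. The authors deposited estimated counts per transcript row with gene symbols, not scaled for depth or length (79.3% of nonzero values were not whole), and FPKM per gene. Over 559 genes, counts divided by FPKM tracked the library totals within 0.508%. The authors' group means of FPKM were not used.

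Counts were summed per symbol and rounded. Rows without a symbol held 0.908% to 1.12% of counts and were left out, and 311 symbols shared by several gene identifiers were each treated as 1 gene. For a count of 0 the upper limit was set at 3 counts. Limits and intervals cover counting error alone, because reads copied by PCR are not independent. Intervals of pooled ratios are exact binomial (Clopper-Pearson) intervals at 95%. Genes were tested with edgeR 4.0.16 in R 4.3.3 (TMM, filterByExpr by group, glmQLFit and glmQLFTest) without covariates, with Benjamini-Hochberg adjustment over all tested genes. The thresholds, an adjusted p of 0.05 and a fold of 1.5, are the study's criteria. Transcript rows were fitted in the same way over all rows. The biological coefficient of variation was 0.0598, and the root mean square log2 distance between libraries was 0.347 to 0.392 within groups and 0.672 to 0.757 between them. The procedure was tested on simulated data. The FPKM ratio of Cebpb to Cebpa was compared with an exact permutation test (scipy 1.17.1), and the other family ratios are given as descriptions.

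The rows carry no length, so they were matched to GENCODE M21 transcripts indirectly. Annotated lengths, less 326 bases as fitted on Cebpb, were tried for the rows, and the gene's FPKM was rebuilt from the counts. A match was accepted where the rebuilt FPKM lay within 1% of the deposited FPKM and the next transcript gave a gap over 5%. Promoter windows came from RefSeq (GRCm38.p6). Loci are GRCm38, and no coordinate of the deposited files was used. Results on some genes are not reported here, and the lists hold no such gene. The factors and 19 gene lists were chosen with earlier results of these data known. Named genes are the factors, Trem2, every tested relative in the C/EBP, MAF, IRF, RUNX and MiT/TFE lists, up to 6 DEGs with the largest change in each other list, the markers Csf1r, Adgre1, Cd68, Lyz2 and Itgam, and the 5 genes nearest in profile to the most changed factor. Runx3, Pparg, Arg1, Chil3, Retnla, the C1q genes, Blnk and the markers at 0 were added once their values were known. The same holds for Dcstamp, Neu1, Ostm1, Hexa, Sqstm1 and Ctsd. Alternatives were DESeq2 1.42.0, RLE and upper quartile scaling, library size only, other filters, limma-voom, limma 3.58.1 on log2(FPKM + 1) and log2(FPKM + 0.1), an effective-length offset, other thresholds, a replicate block, and the removal of 1 library at a time.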

Additional observations from a re-analysis of the deposited data

How the results depend on the processing

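Irf8 stayed a DEG, lower in shTrem2, in each of 17 alternatives of test, scaling, filter and samples, and Tfec was called higher in each of the 16 that tested it, which gives no support, since it was kept in the test through its high group. Without a fold threshold, 3 factors were higher and 7763 genes were called; above 2-fold, 0 factors were lower (Irf8 lies under 2-fold) and 1339 genes were called. With at least 10 counts in every library, 0 factors were called higher, since Tfec was then not tested. Leaving out each library in turn gave 2789 to 3105 called genes, with 1 factor higher and 1 lower throughout. DESeq2 called 2805 genes, of which 2652 were shared with the 2951 of edgeR, and limma on log2(FPKM + 1) called 2124. With each library left out in turn, the differences in family ratios ran from 0.08 to 0.29 for Cebpb to Cebpa, from 1.00 to 1.22 for Irf4 to Irf8 and from 2.38 to 3.06 for Tfec to Mitf, which was 2.00 on FPKM + 0.1. Samples of the same number did not deviate together (correlations of 0.0062, -0.0044 and 0.0066 across genes). This cannot decide whether they were prepared together, since a pairing without a shared effect would look the same. The labels do not say. With the replicate number as a block, 2911 genes were called, 1 factor higher and 1 lower. Of 69 named genes, 58 had the same call in every alternative that tested them. Of 1163 values of named genes, 22 lost the call and 8 gained it. On log2(FPKM + 1), the calls of Cbfb, Cnnm1, Spib, Rxra, Gfi1, Ccl22, Mgl2 and Zbtb46 were lost. Depth limits Tfec, with at most 29 counts in a library, and Maf, with none.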
